A study of Mus musculus with 8 samples.

Results

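Alternative activation is the state that macrophages enter under the cytokines IL-4 and IL-13. A list of 9 genes for this state was followed here in bone marrow-derived macrophages (BMDMs) after knockdown of the lncRNA MAARS. The genes were Il4ra, Clec10a, Mgl2, Arg1, Chil3, Retnla, Tgm2, Pdcd4 and Ear2, chosen by symbol and found by their Ensembl identifiers among the 49315 genes of the count table. Of these 9 genes, 6 passed the filter on low counts and were tested, and Arg1, Mgl2 and Retnla were too low to be tested. BMDMs are primary macrophages grown from the marrow of the long bones of C57BL/6 mice, here in IMDM medium with serum and 10 ng/ml of M-CSF. The 4 control libraries (replicates 2, 5, 6 and 7) came from cells transfected with a negative control gapmeR and the 4 knockdown libraries (replicates 9, 11, 13 and 15) from cells transfected with a gapmeR against MAARS, each at 25 nM with a lipid reagent. Values of single libraries are given in this replicate order throughout. A gapmeR is a short antisense oligonucleotide that directs cleavage of its target RNA inside the cell. The cells of both groups therefore shared the transfection and the wild-type background, and the labels name no IL-4 or other polarizing cytokine. The labels do not say whether the 4 libraries of a group came from separate mice or cultures, so the p-values measure the spread between these libraries, which may be technical.

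IL-4 and IL-13 act through receptors that share the chain encoded by Il4ra, paired with the common gamma chain (Il2rg) or with Il13ra1. The receptor-bound JAK kinases phosphorylate STAT6, which enters the nucleus and switches on genes such as Arg1, Chil3, Retnla and Clec10a. In the mouse these genes are widely used as markers of macrophages in tissue repair, helminth infection and allergic inflammation.

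STAT proteins bind a palindrome made of TTC and GAA, with a spacer of 4 bases preferred by STAT6 and of 3 bases by most other STATs. Promoter windows of 300 bases, from 250 before to 50 after the annotated start, were at hand from RefSeq (GRCm38.p6) for 6 of the 9 genes. These letters with a spacer of 3 or 4 bases were searched on both strands, where they read alike. They occurred in windows of Retnla, Chil3 and Pdcd4, which are shown with the match in capitals because they hold the member with the largest rise and 2 of the textbook STAT6 targets. The Pdcd4 window lies on the plus strand at chr19:53891981-53892280, the Chil3 window on the minus strand at chr3:106167515-106167814 and the Retnla window on the plus strand at chr16:48842359-48842658.
Pdcd4: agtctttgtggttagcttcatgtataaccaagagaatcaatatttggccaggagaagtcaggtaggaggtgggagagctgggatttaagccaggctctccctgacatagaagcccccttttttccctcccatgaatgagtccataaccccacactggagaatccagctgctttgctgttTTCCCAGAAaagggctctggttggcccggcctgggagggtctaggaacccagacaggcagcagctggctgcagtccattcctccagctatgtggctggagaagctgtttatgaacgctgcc
Chil3: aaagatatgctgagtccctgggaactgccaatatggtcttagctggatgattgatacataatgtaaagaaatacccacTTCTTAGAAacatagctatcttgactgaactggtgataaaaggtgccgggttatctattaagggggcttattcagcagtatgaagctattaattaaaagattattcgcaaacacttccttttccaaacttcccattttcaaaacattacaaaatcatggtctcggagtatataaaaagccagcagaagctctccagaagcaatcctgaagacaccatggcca
Retnla: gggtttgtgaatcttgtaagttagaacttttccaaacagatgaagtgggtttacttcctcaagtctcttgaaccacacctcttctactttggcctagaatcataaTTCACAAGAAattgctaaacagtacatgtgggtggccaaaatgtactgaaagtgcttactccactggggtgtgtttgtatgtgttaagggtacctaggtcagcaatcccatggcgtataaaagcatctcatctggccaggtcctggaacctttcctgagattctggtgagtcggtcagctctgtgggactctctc
The match in Retnla had a spacer of 4 bases and lay 145 to 136 bases before the start. Those in Chil3 and Pdcd4 had a spacer of 3 bases and lay 172 to 164 and 71 to 63 bases before the start. The windows of Il4ra, Mgl2 and Ear2 and a downstream window of Pdcd4 held neither form. Of all 32851 windows of this length, 8.3% held the form with 3 bases, 6.95% that with 4 bases and 14.6% either form, so a match by itself is not rare and is not a binding site.

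The libraries were made from total RNA after ribodepletion and sequenced in pairs of 100-nt reads, and held 19287279 to 20567123 counts on genes with control gapmeR and 20839671 to 24541205 with MAARS gapmeR. MAARS itself (Gm14461, a lincRNA on chromosome 2) fell from 13.1 ± 1.36 to 6.82 ± 0.844 CPM (SD, n = 4 each), and its log2 fold change was -0.95. CPM are counts scaled to a common library total with TMM factors. All 9 macrophage markers examined passed the filter, with a summed level of 14181 to 17466 CPM in control and 17265 to 20505 CPM in MAARS gapmeR libraries. Among these markers 5 rose, Lyz2 and Csf1r included, and 3 fell, of which Fcgr1 fell by 2.09 on the log2 scale, where 21.3% of all genes tested were called higher and 24.0% lower at an edgeR adjusted p under 0.05. The lymphocyte marker Cd3g and the mast cell markers Fcer1a, Mcpt4 and Tpsb2 were at 0 in every library. The summed lymphocyte markers ranged from 66.1 to 85.7 CPM in control and from 40.8 to 51.6 CPM in MAARS gapmeR libraries, nearly all of it Cd4, which some mouse macrophages also transcribe. The summed basophil and mast cell markers lay between 0.477 and 1.08 CPM and the summed dendritic cell markers between 1.18 and 2.76 CPM over all libraries. The stromal and endothelial markers summed to 460.3 to 1049 CPM in control and 720.2 to 1236 CPM in MAARS gapmeR libraries, nearly all of it Col1a1 and Col1a2. The endothelial markers Cdh5 (1.54 and 0.942 CPM) and Pecam1 (1.75 and 1.54 CPM in control and MAARS gapmeR groups) were low. Of the 7 markers 0 were called by edgeR or limma-voom, 1 by DESeq2 and 1 at an unadjusted edgeR p under 0.05.

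Of the 6 members tested, 2 rose, 1 fell and 3 did not pass an adjusted p under 0.05 in edgeR's quasi-likelihood test. Over all 13051 genes tested the same rule called 21.3% higher and 24.0% lower after MAARS knockdown, so the counts of 2 and 1 among 6 genes are near the background. Of all calls 47.0% were higher, and 60.4% with upper-quartile factors, under which Clec10a and Pdcd4 were again the members that rose. The members did not move as a block. Their log2 fold changes ran from -0.48 to 1.00 with a median of 0.03, beside a median of 0.01 and quartiles of -0.21 and 0.25 over all genes tested. In 2 members, Clec10a and Pdcd4, no control library overlapped any MAARS gapmeR library, a separation found in either direction for 42.1% of all genes tested. In bulk RNA, fewer cells of a type and less RNA per cell cannot be told apart.

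**Figure D1:**
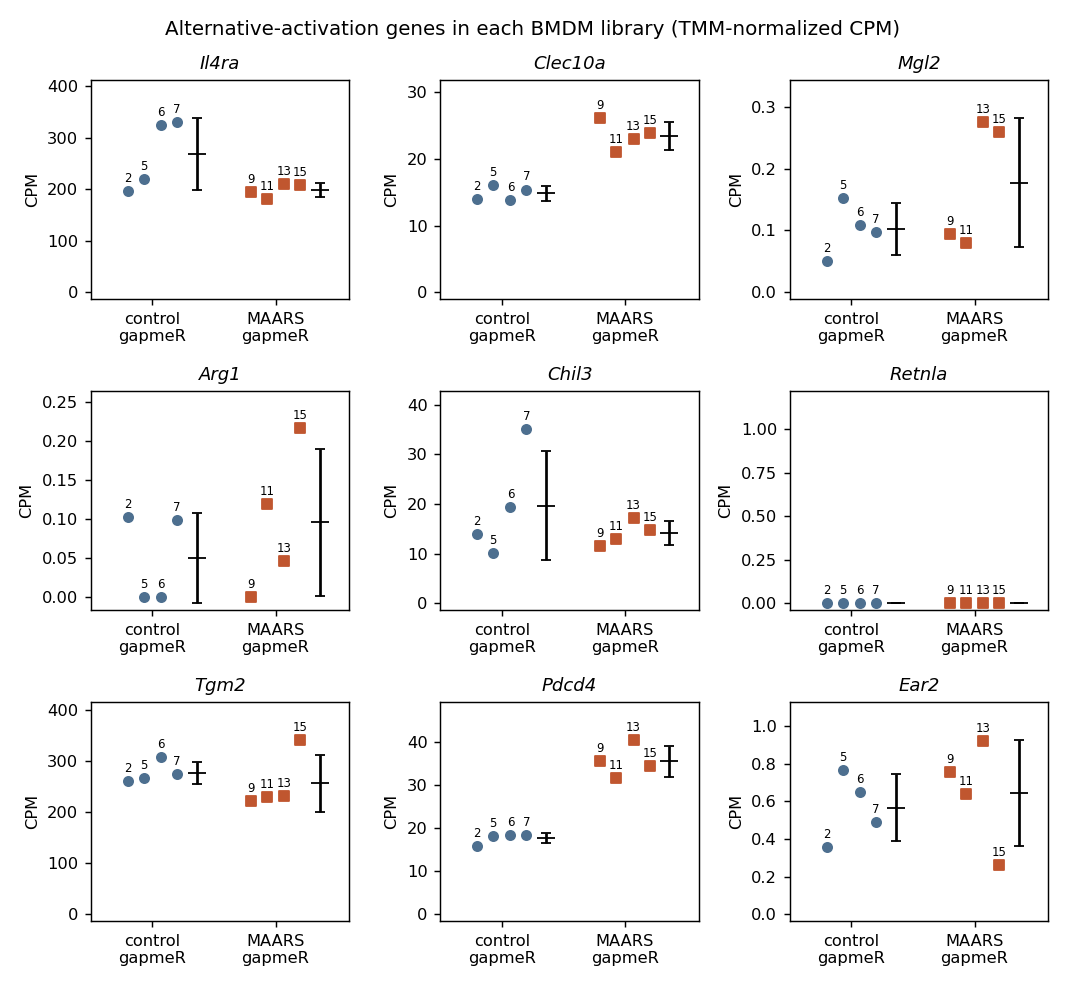
TMM-normalized CPM of the 9 alternative-activation genes in each library, with the replicate number beside each point, circles for control gapmeR, squares for MAARS gapmeR, and bars for the mean ± SD of 4 libraries. Only Clec10a and Pdcd4 separate the groups, Retnla is at 0 throughout, and Arg1 and Mgl2 stay below 0.3 CPM.

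Levels were compared between the genes per kilobase of exon. With control gapmeR, Tgm2 was the highest at 60.2 ± 4.68 CPM per kb (SD, n = 4), followed by Il4ra at 44.7 ± 11.7 and Chil3 at 12.0 ± 6.72 CPM per kb. Pdcd4 at 5.65 ± 0.395 and Clec10a at 5.11 ± 0.386 CPM per kb overlapped in their libraries and could not be ordered. Ear2 followed at 0.787 ± 0.247 CPM per kb, and Mgl2 and Arg1 stood at 0.0490 and 0.0225 CPM per kb, again with overlapping libraries. With MAARS gapmeR Tgm2 and Il4ra kept the top places. Pdcd4, at 11.3 ± 1.17 CPM per kb, then had a higher mean than Chil3 at 8.64 ± 1.49, although the libraries of these neighbours overlapped.

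Il4ra encodes the receptor chain through which both IL-4 and IL-13 signal, and lies on chromosome 7 from 125552120 to 125579474 (GRCm38, plus strand). Its level was 196.3, 220.1, 325.9 and 331.3 CPM in the control libraries, and 195.3, 182.0, 210.4 and 208.4 CPM in the MAARS gapmeR libraries. The MAARS gapmeR libraries lay close together, at the level of control replicates 2 and 5, and control replicates 6 and 7 were higher. The log2 fold change was -0.43 (SE 0.149, edgeR adjusted p = 0.0344), but the groups overlapped and the two-sided exact permutation test over the divisions into 4 and 4 libraries gave p = 0.114. The call was lost when a single library was left out in 6 of 8 cases, with adjusted p from edgeR of 0.102 without control replicate 6, 0.0976 without control replicate 7, and 0.0677, 0.0867, 0.0512 and 0.0568 without MAARS gapmeR replicates 9, 11, 13 and 15. It was also lost with DESeq2 (adjusted p = 0.0643), with upper-quartile factors and with a robust prior. Some 9.51% of its exonic bases are overlapped on the opposite strand by Gm44876, and the strand setting of the counting is not given in the sources used here.

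Of 15 other genes listed for the IL-4 and IL-13 pathway, 13 were tested, 2 rose, 8 fell and 3 did not pass, with a median log2 fold change of -0.19. Over all genes tested 21.3% were called higher and 24.0% lower. At a fold change of at least 1.5, 1 of the 13 rose and 3 fell. This rule called 959 of all 13051 genes tested higher and 823 lower. Both partner chains of Il4ra were lower. Il13ra1, the partner chain of the type II receptor, was 30.4, 32.4, 38.9 and 37.0 CPM in the control libraries and 14.4, 15.6, 19.1 and 13.2 CPM in the MAARS gapmeR libraries, with no overlap (log2 fold change -1.16, SE 0.114, edgeR adjusted p = 1.68e-05). Il2rg, the common gamma chain that also serves the IL-2, IL-7 and IL-15 receptors, fell from 94.8 ± 19.4 to 37.1 ± 4.90 CPM (SD, n = 4 each; log2 fold change -1.35, edgeR adjusted p = 1.93e-05), although 30.5% of its exonic bases are shared with the readthrough annotation Gm20489 on the same strand. The receptor chains Il13ra1, Il2rg and Il4ra, the last with the uncertain call given above, were thus lower, and Il13ra2, the decoy receptor, had a count of 1 in each group.

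The kinases and the transcription factor of the pathway had smaller log2 fold changes. Jak2 and Jak3 fell by 0.42 and 0.34 on the log2 scale (edgeR adjusted p = 0.00189 and 0.00915). Stat6 was tightly measured, at 299.1, 296.7, 283.6 and 286.8 CPM in control and 259.2, 261.8, 251.4 and 251.8 CPM in MAARS gapmeR libraries, with no overlap and a log2 fold change of -0.19 (SE 0.0403, edgeR adjusted p = 0.00304). Jak1 fell by 0.12 with an edgeR adjusted p of 0.04999, at the threshold, and the call was lost in 9 of 15 alternatives, 6 of them fits that left out control replicate 5, 6 or 7 or MAARS gapmeR replicate 11, 13 or 15 (adjusted p from 0.0688 to 0.131). Tyk2, with a log2 fold change of -0.09 (edgeR adjusted p = 0.287), passed only without control replicate 2 (adjusted p = 0.0491). Irs2, the adaptor through which IL-4 also signals, stood at 27.8 CPM in both groups (edgeR adjusted p = 0.988).

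The inhibitors of the pathway were split. Socs1, which blocks JAK kinases and is itself induced by interferons, fell from 4.48 ± 1.05 to 1.71 ± 0.472 CPM (SD, n = 4 each; log2 fold change -1.39, edgeR adjusted p = 0.000515) with no overlap. Ptpn6, the phosphatase SHP-1, fell by 0.55 on the log2 scale (edgeR adjusted p = 1.68e-05). Socs2 rose from 1.28 ± 0.379 to 2.43 ± 0.661 CPM (SD, n = 4 each; log2 fold change 0.92, edgeR adjusted p = 0.0151), and Cish, at 0.549 and 0.841 CPM, had a log2 fold change of 0.60 that did not pass (edgeR adjusted p = 0.0913).

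A few reads came from the cytokine gene Il4 itself, with 44, 49, 26 and 45 counts in the control libraries and 69, 73, 69 and 69 counts in the MAARS gapmeR libraries. The groups did not overlap, and the log2 fold change was 0.55 (SE 0.182, edgeR adjusted p = 0.0276). The call was lost without control replicate 6 (adjusted p = 0.0683), MAARS gapmeR replicate 9 (adjusted p = 0.0650) or MAARS gapmeR replicate 13 (adjusted p = 0.0596). Ribodepleted total RNA also holds unspliced transcripts, and gene counts do not show whether these reads came from a mature mRNA. Il13 had 1 count in 8 libraries. Il4 thus stood at 2.09 CPM in the control and 3.08 CPM in the MAARS gapmeR group, beside the basophil and mast cell sum of 0.477 to 1.08 CPM and a lymphocyte sum, nearly all Cd4, that was above Il4 in every library. The lymphocyte markers Cd3d and Cd3e each had 1 count over the control and 3 over the MAARS gapmeR libraries, and Cd3g had 0. The part of basophils, mast cells or lymphocytes in the Il4 counts was not tested.

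**Figure D2:**
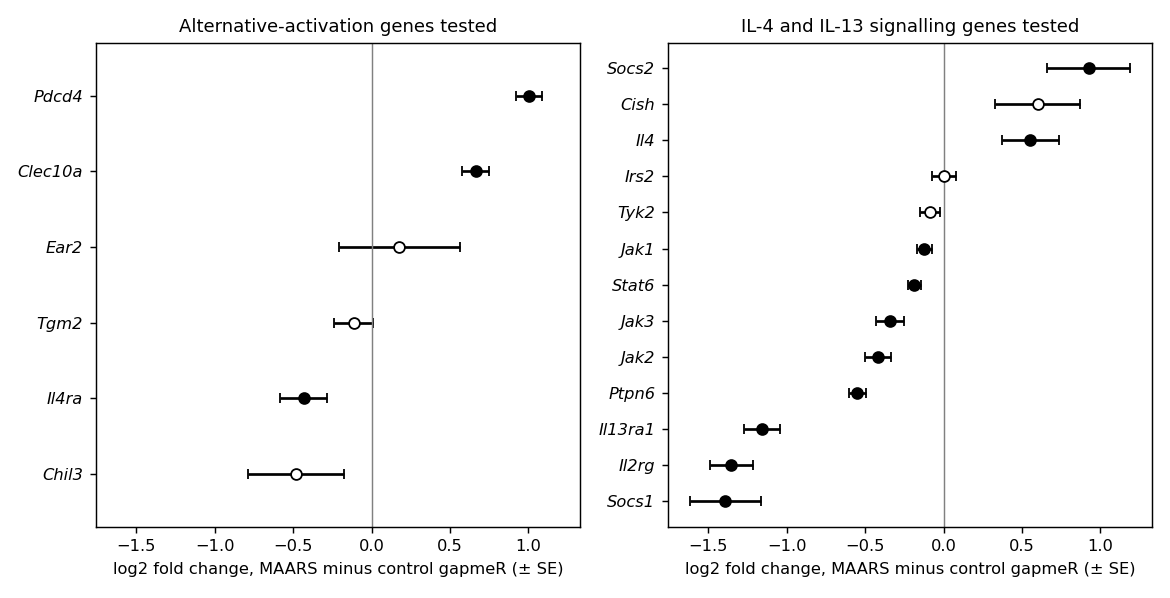
Log2 fold change (MAARS minus control gapmeR) with its standard error for the 6 alternative-activation genes tested and the 13 IL-4 and IL-13 signalling genes tested, with filled points for an adjusted p under 0.05 from edgeR. Pdcd4 (1.00) and Clec10a (0.66) lie to the right, and the receptor chains Il2rg (-1.35) and Il13ra1 (-1.16) with Socs1 (-1.39) lie farthest to the left.

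Clec10a encodes MGL1, a macrophage lectin that binds galactose and N-acetylgalactosamine, and lies on chromosome 11 from 70156197 to 70170834 (GRCm38, plus strand). Its level was 13.9, 16.1, 13.8 and 15.4 CPM in the control libraries, and 26.2, 21.05, 22.98 and 23.8 CPM in the MAARS gapmeR libraries. Every MAARS gapmeR library was above every control library. Clec10a thus rose 1.58-fold (log2 fold change 0.66, SE 0.0837, edgeR adjusted p = 8.97e-05). The two-sided exact permutation test gave p = 0.0286, the lowest p possible with 4 against 4 libraries, which any full separation gives. The call of Clec10a held in all 15 alternatives, with log2 fold changes from 0.60 to 0.73.

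Mgl2, the neighbouring gene on chromosome 11 (70130329 to 70137550, plus strand) for the sister lectin MGL2, was close to absent. It had 1, 3, 2 and 2 counts in the control libraries and 2, 2, 6 and 6 in the MAARS gapmeR libraries, a summed ratio of 1.71 with a 95% counting interval of 0.691 to 4.62, so a change could not be detected at this depth. The 2 lectin genes shared identical stretches of 100 nt over 2.64% of the Clec10a and 3.95% of the Mgl2 transcript windows, so most of each transcript is unique to its gene. Of the same lectin family, the gene Asgr2 for a chain of the asialoglycoprotein receptor (chromosome 11, 70092644 to 70106187) increased from 0.755 ± 0.159 to 1.93 ± 0.400 CPM (SD, n = 4 each; log2 fold change 1.34, edgeR adjusted p = 0.000978), with no overlap between the groups. Its partner chain Asgr1 had 2 and 1 counts over the groups.

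Pdcd4, programmed cell death 4, encodes a repressor of translation initiation, and lies on chromosome 19 from 53892231 to 53929860 (GRCm38, plus strand). It was followed as a member of the list, and its level is not by itself a measure of alternative activation. Its level was 15.9, 18.1, 18.4 and 18.4 CPM in the control libraries, and 35.7, 31.7, 40.4 and 34.4 CPM in the MAARS gapmeR libraries. The lowest MAARS gapmeR library was well above the highest control library. Pdcd4 thus rose 2.01-fold (log2 fold change 1.00, SE 0.0829, edgeR adjusted p = 6.89e-06), which held in all 15 alternatives with log2 fold changes from 0.94 to 1.07. The two-sided exact permutation test again gave p = 0.0286, as any full separation does. No transcript window of 100 nt was shared with another gene. This was the largest change among the 6 members tested. The promoter match shown above lies in the window of the upstream of its 2 annotated starts. Gene counts do not show which start was used, and a part of this match in the rise was not tested.

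Arg1, arginase 1, which turns arginine into ornithine and is the classic product of STAT6 in mouse macrophages, was close to 0. Its counts were 2, 0, 0 and 2 in the control libraries, and 0, 3, 1 and 5 in the MAARS gapmeR libraries, at chromosome 10 from 24915221 to 24927484 (minus strand). The groups overlapped and the summed ratio of 1.93 had a 95% counting interval of 0.538 to 8.56, so no difference was detectable at this depth. Arg2, the mitochondrial arginase, was more abundant with 1.07 ± 0.251 and 1.68 ± 0.781 CPM (SD, n = 4 each), and its log2 fold change of 0.65 did not pass (edgeR adjusted p = 0.133), with 28.1% of its exonic bases overlapped on the opposite strand. Nos2, the inducible nitric oxide synthase that competes for arginine, had 2, 2, 8 and 16 counts in the control libraries and 0 in all MAARS gapmeR libraries. With a floor of 3 counts over the MAARS gapmeR group, and the control counts taken as exact, Nos2 was 10.9-fold lower. Control replicate 7 held 16 of the 28 control counts. Without it, a check chosen after the data were seen, Nos2 was 6.32-fold lower on the same basis.

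Of 13 listed genes of arginine and polyamine metabolism, 12 were tested, 1 rose, 5 fell and 6 did not pass, with a median log2 fold change of -0.08. With the same TMM factors 21.3% of all genes tested were called higher and 24.0% lower. With upper-quartile factors the list had 2 higher and 3 lower. Over all genes, 60.4% of the calls were then higher, beside 47.0% with TMM factors. Ass1, argininosuccinate synthase, which remakes arginine from citrulline, fell from 37.9 ± 7.72 to 8.72 ± 1.496 CPM (SD, n = 4 each; log2 fold change -2.12, edgeR adjusted p = 5.27e-06). Odc1, ornithine decarboxylase, the entry to polyamine synthesis, fell by 0.73 on the log2 scale (edgeR adjusted p = 4.25e-05). Both separated the groups. Smaller decreases were found for its activator Azin1 (-0.27), for Sat1 (-0.25) and Sms (-0.23), enzymes that break down or extend polyamines, and Oat, ornithine aminotransferase, rose by 0.17. The call of Sms was lost in 7 of 15 alternatives, that of Oat in 4 and that of Sat1 in 3.

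Chil3, which encodes the chitinase-like lectin Ym1, lies on chromosome 3 from 106147554 to 106167564 (GRCm38, minus strand). Its level was 13.9, 10.1, 19.5 and 35.1 CPM in the control libraries, and 11.4, 13.01, 17.1 and 14.8 CPM in the MAARS gapmeR libraries. The groups overlapped, and control replicate 7 stood high. The log2 fold change of -0.48 did not pass (SE 0.305, edgeR adjusted p = 0.219) and shrank to -0.04 without control replicate 7. Chil3 is known to be abundant also in immature neutrophils, and that library had the highest neutrophil markers. The summed level of 7 markers, Ngp, S100a8, S100a9, Mpo, Camp, Elane and Ly6g, was 116.4, 84.4, 147.8 and 244.1 CPM in the control libraries, and 88.8, 106.4, 141.0 and 116.2 CPM in the MAARS gapmeR libraries. All 7 of 7 markers were highest in control replicate 7, 0 were called between the groups by edgeR, DESeq2 or limma-voom, or at an unadjusted edgeR p under 0.05, and their part in the Chil3 level was not tested. The stromal and endothelial sum of that library, at 1049 CPM, was also the highest of the control group.

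**Figure D3:**
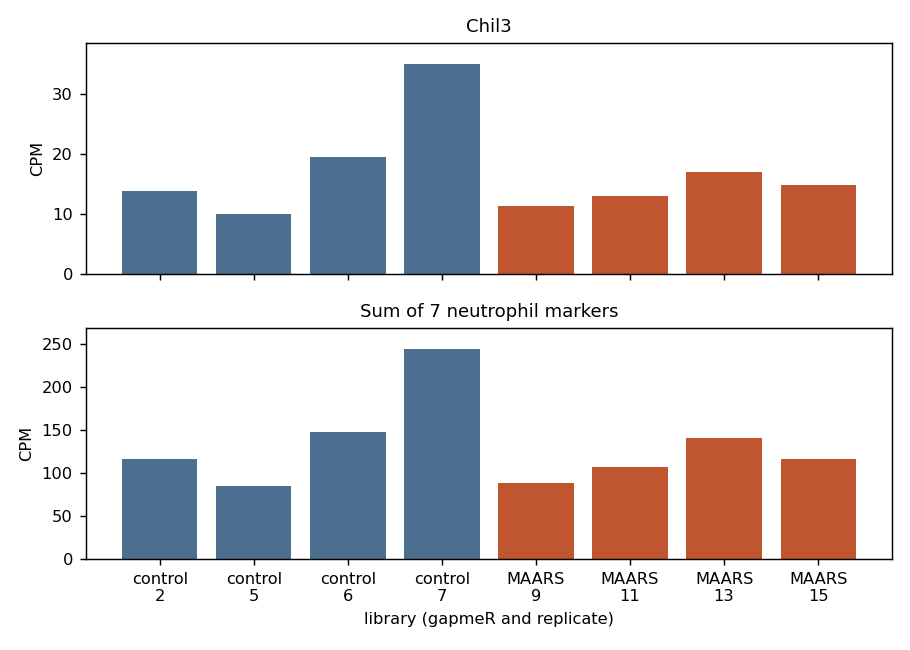
CPM of Chil3 (upper panel) and summed CPM of 7 neutrophil markers (lower panel) in each of the 8 libraries, in blue for control and orange for MAARS gapmeR. Both are highest in control replicate 7, at 35.1 and 244.1 CPM.

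The tested relatives of Chil3 and Retnla, Chil1 and Retnlg, were also highest in control replicate 7. Chil1, a further chitinase-like gene, had 0.922, 0.764, 1.24 and 3.24 CPM in the control libraries and 0.710, 1.03, 1.79 and 1.04 CPM in the MAARS gapmeR libraries (log2 fold change -0.44, edgeR adjusted p = 0.449), and the sign turned to 0.23 without control replicate 7. Retnlg, a resistin-like gene of myeloid cells, reached 1.03 CPM there, and its log2 fold change of -0.72 did not pass (edgeR adjusted p = 0.248). Retnla itself, which encodes the secreted protein RELM-alpha or FIZZ1, had no count in any of the 8 libraries (chromosome 16, 48842551 to 48844461, plus strand). Summed over a group, this count of 0 allows up to 0.0385 CPM in the control and 0.0329 CPM in the knockdown libraries, for counting error only. Of its relatives, Retnlb was also at 0 throughout. Retn, which was not tested, had 2, 3, 1 and 3 counts in the control libraries and 0 in all MAARS gapmeR libraries.

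Tgm2, tissue transglutaminase, which crosslinks proteins and is induced by IL-4 in macrophages of mice and humans, lies on chromosome 2 from 158116402 to 158146436 (GRCm38, minus strand). Its level was 260.6, 265.8, 308.5 and 274.2 CPM in the control libraries, and 221.9, 229.9, 231.9 and 340.5 CPM in the MAARS gapmeR libraries. In the knockdown group 3 libraries lay below every control library and replicate 15 lay above all of them. The log2 fold change of -0.11 did not pass (SE 0.122, edgeR adjusted p = 0.468). Without MAARS gapmeR replicate 15 it was -0.28 and passed (edgeR adjusted p = 0.00559), so the call turned on this library. Overlap with Gm20412 and Rprd1b on the opposite strand touches 21.8% of its exonic bases. Tgm1, the keratinocyte form, fell from 2.25 ± 0.201 to 1.30 ± 0.219 CPM (SD, n = 4 each; log2 fold change -0.78, edgeR adjusted p = 0.00611), and Tgm4, at 0.674 and 0.571 CPM, with 6.74% and 18.2% of its exonic bases overlapped on the same and the opposite strand, did not pass (edgeR adjusted p = 0.545).

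Ear2, an eosinophil-associated ribonuclease that alternatively activated macrophages can also express, lies on chromosome 14 from 44102654 to 44103534 (GRCm38, plus strand). It had 7, 15, 12 and 10 counts in the control libraries and 16, 16, 20 and 6 in the MAARS gapmeR libraries. The groups overlapped, and the log2 fold change of 0.18 did not pass (SE 0.387, edgeR adjusted p = 0.733). It ran from -0.04 without MAARS gapmeR replicate 13 to 0.44 without MAARS gapmeR replicate 15. Ear2 shares 13.9% of its 100-nt transcript windows with Ear10 and Ear-ps2, so part of its reads may belong to these copies. Ear1, which was not tested, had 13 counts over the control and 33 over the MAARS gapmeR libraries, 18 of them in replicate 15. Its summed ratio was 2.17 with a 95% counting interval of 1.11 to 4.50, which leaves out the spread between libraries. Eosinophil markers summed to 7.12 to 9.43 CPM in control and 6.24 to 10.9 CPM in MAARS gapmeR libraries, most of it Ccr3, and 0 of the 3 tested passed in edgeR, DESeq2 or limma-voom, or at an unadjusted edgeR p under 0.05. Their log2 fold changes were 0.17 for Ccr3, -0.23 for Prg2 and -0.47 for Siglecf, the last with no overlap between the groups. Of those not tested, Il5ra had 4, 2, 7 and 2 counts in control and 0 in all MAARS gapmeR libraries. Epx had 4 and 7 counts over the control and MAARS gapmeR groups, and Prg3 had 2 and 5.

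Across the 21 listed relatives of the members, only 6 were tested and 4 were at 0 in every library, Chil4, Chia1, Retnlb and Ear14. Asgr2 rose and Tgm1 fell, while Arg2, Chil1, Retnlg and Tgm4 did not pass. Over all genes tested 21.3% were called higher and 24.0% lower. The list had a median log2 fold change of -0.34 among those tested, beside 0.01 over all genes tested. That median lies between 2 genes that did not pass, Tgm4 (-0.24, SE 0.309) and Chil1 (-0.44, SE 0.449), and the sign of Chil1 turned without control replicate 7.

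Of 12 transcription factors and cofactors tied to alternative activation, 2 rose, 2 fell and 8 did not pass, with a median log2 fold change of -0.03. These counts are near or below the 21.3% higher and 24.0% lower of all genes tested. Egr2, an early IL-4 response factor, rose from 4.61 ± 0.507 to 7.49 ± 0.593 CPM (SD, n = 4 each; log2 fold change 0.70, edgeR adjusted p = 0.000543) with no overlap. Ppard, a nuclear receptor for fatty acids, rose by 0.17 (edgeR adjusted p = 0.0246), a call lost in 6 of 15 alternatives. Klf4, which cooperates with STAT6, fell from 12.8 ± 1.56 to 6.18 ± 0.657 CPM (SD, n = 4 each; log2 fold change -1.04, edgeR adjusted p = 3.36e-05), again with no overlap. Cebpb, needed for Arg1 induction, fell by 0.37 on the log2 scale (edgeR adjusted p = 0.00838), with 20.7% of its exonic bases overlapped by Tmem189 on the opposite strand.

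Among 25 other genes known to be induced by IL-4, 16 were tested, 9 rose, 4 fell and 3 did not pass, with a median log2 fold change of 0.34. Mrc1, the mannose receptor and a standard surface marker of the state, rose from 672.99 ± 15.2 to 1164 ± 99.3 CPM (SD, n = 4 each; log2 fold change 0.79, edgeR adjusted p = 5.45e-06), with no overlap. F13a1, coagulation factor XIII subunit A, rose by 2.07 on the log2 scale, Matk, a kinase that restrains Src, by 1.51, and Ptgs1, cyclooxygenase-1, by 1.08. The other risers named by p were Atp6v0d2, a subunit of the vacuolar proton pump (0.46), and the growth factor gene Igf1 (0.40). Ccl24, the eosinophil chemokine eotaxin-2, had a log2 fold change of 1.82 at a low level, with 8, 6, 7 and 3 counts in control and 33, 17, 21 and 29 counts in MAARS gapmeR libraries.

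The genes of this list that fell were Il1rn, the interleukin-1 receptor antagonist (-0.70), Il1r2, the decoy receptor for interleukin-1 (-1.57), Trem2, a lipid receptor (-0.19), and Flt1 (-1.29), whose call was lost in 6 of 15 alternatives. Several textbook members could not be followed, since Ccl17 was at 0 in every library and Ccl22, Cd209a, Cdh1 and Alox15 were below the filter. The list had 9 of 16 genes higher and 4 of 16 lower, beside 21.3% and 24.0% of all genes tested, and it was chosen with earlier results of these data known.

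Genes of classical activation, the state driven by interferon-gamma and bacterial products, were followed for comparison. Of 20 listed, 14 were tested, 0 rose, 12 fell and 2 did not pass, with a median log2 fold change of -1.35, beside 21.3% higher and 24.0% lower among all genes tested. The count of 0 higher was the same with DESeq2, with limma-voom and at an unadjusted edgeR p under 0.05. Cxcl10, an interferon-induced chemokine, fell from 31.0 ± 11.1 to 1.23 ± 0.650 CPM (SD, n = 4 each; log2 fold change -4.66, edgeR adjusted p = 5.27e-06). Irf5 fell by 0.70, Tnf by 1.17, Cd40 by 1.76 and Ccl5 by 3.50 on the log2 scale, each with no overlap between the groups. Some of these genes, Cxcl10 and Ccl5 among them, are also interferon-response genes, so the list is not a measure of classical activation alone. Whether the 2 states differed in their response was not tested.

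**Figure D4:**
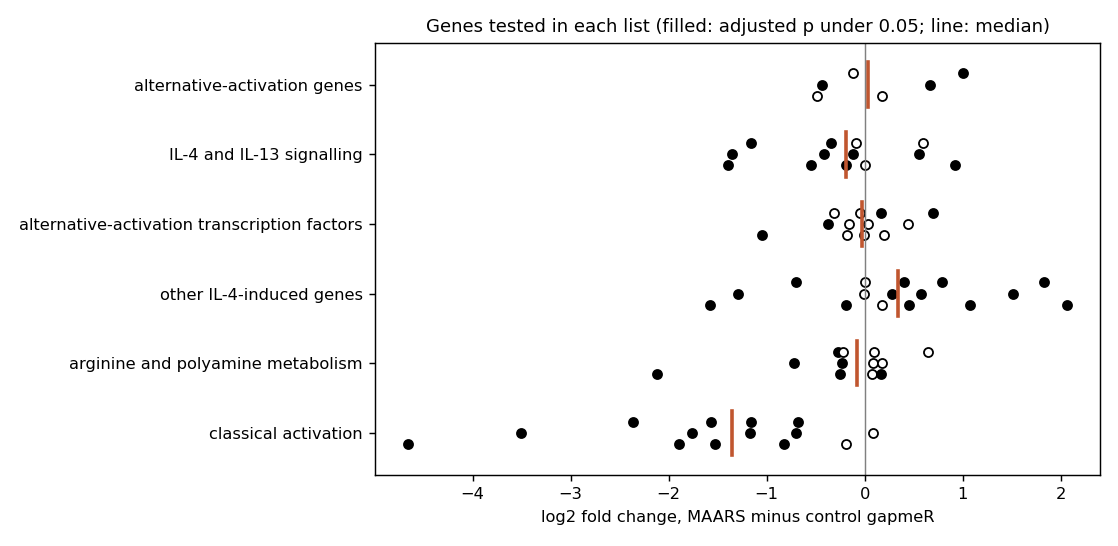
Log2 fold change (MAARS minus control gapmeR) of every gene tested in 6 gene lists, with filled points for an adjusted p under 0.05 from edgeR and a line at the median of each list. The alternative-activation genes spread around 0 (median 0.03), the other IL-4-induced genes lie mostly to the right (median 0.34) and the classical activation genes to the left (median -1.35).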

How the data were processed

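RNA-Seq counts per gene were used for 4 control gapmeR and 4 MAARS gapmeR libraries of mouse BMDMs, grouped by their labels. The authors trimmed reads with Trimmomatic 0.36, aligned them with STAR 2.5.2b to GRCm38 and counted reads per gene with featureCounts (Subread 1.5.2), as the submitters' processing notes name these tools, and deposited raw counts. How strand and reads with several positions were treated is not given in the sources used here. Counts were analysed in R 4.3.3 with edgeR 4.0.16 (filterByExpr with a minimum count of 10 and a minimum total of 15, TMM factors, glmQLFit, glmQLFTest) and Benjamini-Hochberg adjustment over 13051 genes. The standard error (SE) of a log2 fold change was its size over the root of F. Alternatives used DESeq2 1.42.0, limma 3.58.1 (voom), RLE or upper-quartile factors, no filter or a filter on a mean of 10 counts, a robust prior, other thresholds and fits without each library. Replicates of a group differed by a chi-square of 4.26 to 15.4 per gene, so no library was counted as a copy of another. Intervals and the upper limits of counts of 0 (3 counts) cover counting error only. Positions, exon lengths and overlaps came from GENCODE M21, in which 99.47% of the gene identifiers were found. The members and gene lists were chosen with earlier results of these data known. Named are the 9 members, MAARS, their relatives with at least 10 counts in any library, every IL-4 and IL-13 signalling gene tested, and up to 6 called genes in each direction of the other lists in order of p. Ccl24, Il1b, untested genes and cell type markers were named in addition after their values were seen. 1 gene of the classical activation list that this rule names is not reported here. Protein sequences were not used here.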

Additional observations from a re-analysis of the deposited data

Results flagged for a closer look

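In 6 of 156 groups of 4 libraries (3.85%), for the tested genes of the lists, 1 library stood apart from the other 3 by Dixon's test, about as many as the 1 in 20 that chance gives. Tgm2 was 340.5 CPM in MAARS gapmeR replicate 15, beside 221.9 to 231.9 CPM in the other libraries of its group, and its call turns on this library. Pdcd4 was 15.9 CPM in control replicate 2, beside 18.1 to 18.4 CPM, and its rise held without it. Azin1 was 320.3 CPM in control replicate 2 (others 271.8 to 276.4 CPM). Cd40 was 17.3 CPM in control replicate 6 (others 11.1 to 12.0 CPM). Cxcl10 was 2.21 CPM in MAARS gapmeR replicate 13 (others 0.867 to 0.955 CPM). Il1b was 0.279 CPM in MAARS gapmeR replicate 11 (others 0.735 to 0.780 CPM).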

How the results depend on the processing

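No paired analysis was possible because the groups share no replicate number. Clec10a, Pdcd4 and MAARS kept direction and call in all 15 alternatives, and Chil3 stayed uncalled in all 15. Il4ra was not called with upper-quartile factors (-0.37, adjusted p = 0.0637), DESeq2 (-0.43, adjusted p = 0.0643) or a robust prior (-0.43, adjusted p = 0.1), and without single libraries it ran from -0.55 to -0.32. Hence 0 members were lower with these 3 alternatives, at an adjusted p under 0.01 and at a fold change of at least 1.5, and 0 to 1 without single libraries. Without single libraries, Tgm2 ran from -0.28 to -0.056, Ear2 from -0.042 to 0.44, Irs2 from -0.050 to 0.055 and Chil1 from -0.73 to 0.23, and Irs2 was -0.0033 with no filter. At an adjusted p under 0.01, genes higher were 0 for IL-4 and IL-13 signalling, 1 for transcription factors, 0 for arginine metabolism (2 lower) and 1740 of all genes. At a fold change of at least 1.5, IL-4 and IL-13 signalling had 1 higher and 3 lower, transcription factors 1 and 1, other IL-4-induced genes 5 higher, arginine metabolism 0 and 2, and all genes 959 and 823. Upper-quartile factors gave arginine metabolism 2 higher and 3 lower, raised the share of calls that were higher from 47.0% to 60.4% and moved the median of all genes to 0.07. No filter gave 2 lower relatives, where 24350 genes were tested and 46.9% of all calls were higher. Without single libraries, calls higher ran from 1 to 2 for signalling and transcription factors and 0 to 1 for arginine metabolism. Calls lower ran from 3 to 5 for arginine metabolism. Over all genes these fits called 2323 to 2700 higher and 2774 to 3032 lower. The causes were not tested. Control levels per kilobase moved by less than 1 SD with plain library totals, and the order of the members was compared only per length. Depth limits Arg1, Mgl2, Retnla and Ear2.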
